A study of Homo sapiens and Mus musculus with 16 samples.

Results

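Dual specificity phosphatases (DUSPs) remove the phosphates that switch MAP kinases on. The 9 DUSP genes described here (DUSP1, DUSP2, DUSP4, DUSP5, DUSP6, DUSP7, DUSP8, DUSP10 and DUSP14) were chosen by name from the 22314 genes of the mRNA table, which lists 24 DUSP genes in all. They were read in 4 mRNA libraries of the line SK-HEP-1, derived from a human liver cancer and grown with fetal bovine serum. The cells received either DMSO, the solvent, for 2 hr (2U) or 4 hr (4U), or an ethanol extract of the fruiting bodies of the fungus Antrodia cinnamomea (AcFBE, 0.5 mg/ml) for the same 2 hr (2T) or 4 hr (4T). Per the study, the extract stock went into fresh medium at room temperature, and this replaced the old medium. The study does not state whether the DMSO cultures had the same change of medium. No mRNA library came from cells without DMSO or extract, so untreated here means DMSO. Levels are in FPKM (fragments scaled to exon length and to library size). Per the study, the cDNA was amplified by PCR and then sonicated, in a protocol adapted from single-cell work. Read coverage along the transcripts was not examined, so comparisons of level between genes of different length are approximate.

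Each condition had 1 mRNA library, so the ratios at each time have no replicate check and were not tested. A gene was read as higher or lower where its FPKM differed by at least 2-fold and reached 1 FPKM in at least one of the libraries compared. Between 8454 and 10691 genes were above 0 per library. The 4 hr libraries held no value between 0 and 0.2 FPKM, whereas 2656 genes of 2U and 1173 genes of 2T lay there, so values under 0.2 FPKM at 2 hr had no counterpart at 4 hr. An entry of 0 may be a failed estimate, because DICER1 and MAPK8, which encode the miRNA-processing enzyme Dicer and the kinase JNK1, were listed at 0 in all 4 libraries. Of 9 hepatocyte markers 8 were listed at 0 throughout, albumin (ALB) among them, and SERPINA1 ranged from 8.59 to 18.7 FPKM. Of 6 endothelial markers 5 were listed at 0 throughout, and ENG ranged from 8.65 to 24.8 FPKM. The 5 mesenchymal markers were mixed. The filament gene VIM ranged from 6465 to 13625 FPKM, FN1 from 4.92 to 14.5 FPKM and THY1 from 25.5 to 55.6 FPKM. COL1A2 was listed at 0 throughout, and COL1A1 was above 0 only in 4T (0.271 FPKM).

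MAP kinases (ERK, JNK and p38) carry growth factor and stress signals to the nucleus. DUSP1, DUSP2, DUSP4 and DUSP5 are nuclear enzymes, known as immediate or early genes that the same signals induce, whereas DUSP6 and DUSP7 act on ERK in the cytosol. DUSP8 and DUSP10 prefer JNK and p38, and DUSP14 is a small atypical member without the kinase-binding domain of the others.

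Among the 9 genes, DUSP1 had the highest level in untreated cells, and this level was far lower in treated cells. DUSP1 was 227 FPKM in 2U and 79.1 FPKM in 4U, against 4.33 FPKM in 2T and 2.53 FPKM in 4T. Both treated libraries lay below both untreated ones, as for 32.6% of the 5915 genes above 0 throughout that reached 1 FPKM in any library. The treated level was 52.4-fold lower at 2 hr (log2 ratio −5.71) and 31.3-fold lower at 4 hr (log2 ratio −4.97). Of the genes tested, which leave out any listed at 0 in either library, 11 of 5475 had a lower ratio at 2 hr and 12 of 5971 at 4 hr. Its level was higher than that of 96.4% of the genes above 0 in 2U and of 64.6% in 2T, so the transcript was still in the upper part of the range after treatment. From the whole-read steps in the low values, these levels correspond to about 2100 and 850 untreated reads (2U, 4U) and 42 and 27 treated reads (2T, 4T).

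DUSP1 lies at chr5:172195099-172198198 on the minus strand (GRCh37), a compact gene of 4 exons over 3.1 kb. A pair of sequence stretches is shown because it holds the elements for which the gene's fast induction and short-lived mRNA are known, and no readout here measured either of them. The first is its RefSeq promoter window (GRCh38.p14), 250 bases before to 50 bases after the start. Capitals mark the cyclic AMP response element TGACGTCA, the E-box CACGTG and the TATA motif TATAAA, which begin 125, 108 and 30 bases before the start, and the positions are chr5:172771303-172771330, chr5:172771288-172771313 and chr5:172771210-172771235, all on the minus strand.
DUSP1 cyclic AMP response element: gcagggcgggTGACGTCAccgccccgtc
DUSP1 E-box: accgccccgtCACGTGatcaccattc
DUSP1 TATA motif: agaggccgcaTATAAAcgcgctcccc
The second is the 3′ untranslated region of 666 bases, in exon 4, where capitals mark the AU-rich nonamer TTATTTATT that begins 101 and 369 bases after the stop codon, at chr5:172195648-172195672 and chr5:172195380-172195404 (GRCh37, minus strand).
DUSP1 first nonamer: gctggtccTTATTTATTtaacttca
DUSP1 second nonamer: aatataccTTATTTATTtttgtgta

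DUSP5, the nuclear phosphatase specific to ERK, followed DUSP1 at a lower level. It was 21.8 FPKM in 2U and 5.84 FPKM in 4U, against 0.658 FPKM in 2T and 0.537 FPKM in 4T. The treated libraries again lay below both untreated ones, next to the same 32.6% of genes. The difference was 33.1-fold at 2 hr (log2 ratio −5.05) and 10.9-fold at 4 hr (log2 ratio −3.44), with 14 and 30 of the genes tested at lower ratios. The treated values rest on about 7.8 reads in 2T and 7.1 in 4T, against 240 in 2U and 77 in 4U. DUSP5 lies at chr10:112257665-112271291 on the plus strand (GRCh37). Its 3′ untranslated region of 1107 bases held 0 copies of the AU-rich pentamer ATTTA.

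The other nuclear members were listed at or near 0. DUSP2, known mainly from blood cells, was listed at 0 in all 4 libraries. DUSP4, which acts on ERK and JNK, was at 0.1215 FPKM in 2U (about 3 reads, under the 0.2 FPKM below which the 4 hr libraries list nothing) and was listed at 0 in the other 3. The nuclear inducible group was therefore measured through DUSP1 and DUSP5.

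The cytosolic ERK phosphatases were low throughout and did not move together. DUSP6, itself an ERK-induced feedback inhibitor, was 1.31 and 1.11 FPKM without the extract (2U, 4U) and 0.102 and 0.639 FPKM with it (2T, 4T). It was 12.8-fold lower at 2 hr (log2 ratio −3.68), but the 2T value is about 1.8 reads and lies under 0.2 FPKM. At 4 hr the difference was 1.73-fold, under the 2-fold threshold (log2 ratio −0.79), and 35.4% of genes tested had a lower ratio. DUSP7 was 0.347 and 0.9205 FPKM without the extract (2U, 4U) and 0.641 and 0.6603 FPKM with it (2T, 4T), and did not reach 1 FPKM in any library. Its log2 ratio was 0.89 at 2 hr and −0.48 at 4 hr, on 5.3 to 17 reads.

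**Figure D1:**
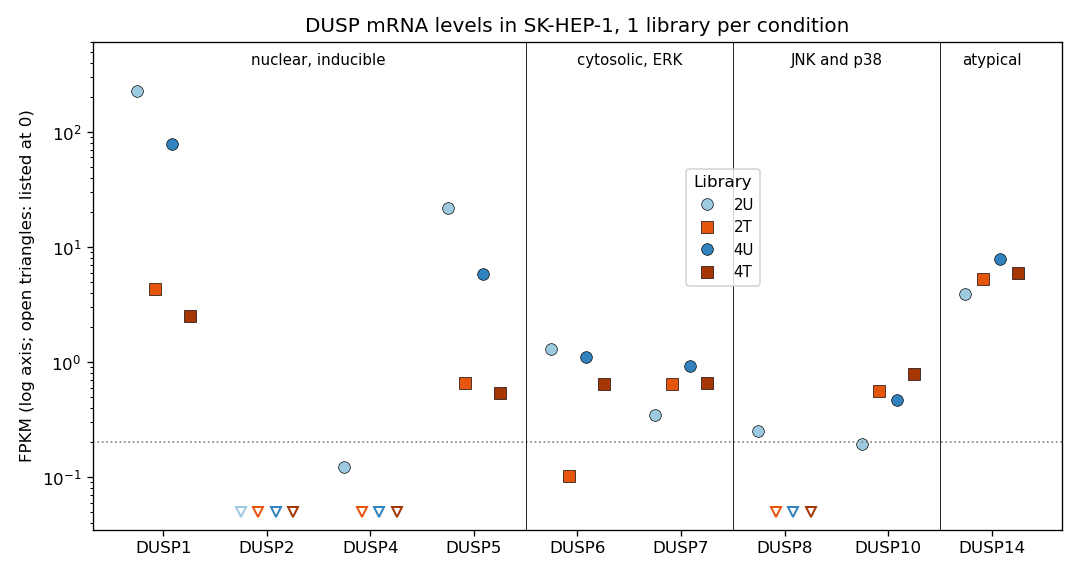
FPKM on a log axis for the 9 DUSP genes, grouped by role. Circles are the untreated libraries 2U and 4U, squares the treated libraries 2T and 4T, open triangles entries listed at 0, and the dotted line is 0.2 FPKM. DUSP1 and DUSP5 show both squares far below both circles, whereas DUSP14 stays between 3.92 and 7.86 FPKM.

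Among the JNK and p38 phosphatases, DUSP10 had higher values in treated cells, and DUSP8 was listed above 0 in 2U alone. DUSP10 was 0.192 and 0.463 FPKM without the extract (2U, 4U) and 0.556 and 0.792 FPKM with it (2T, 4T). Both treated values lay above both untreated ones, by a log2 ratio of 1.53 at 2 hr and 0.77 at 4 hr. The same held for 24.2% of the 5915 genes above 0 throughout that reached 1 FPKM in any library, which leave out DUSP10. The 2U value lies under 0.2 FPKM, below which the 4 hr libraries list nothing. The values never reached 1 FPKM and correspond to 2.2 to 11 reads, so DUSP10 was not counted as higher. DUSP8 was 0.2502 FPKM in 2U (about 5.4 reads) and was listed at 0 in the other 3 libraries.

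DUSP14 differed least with treatment among the 4 members that passed the minimum level. It was 3.92 and 7.86 FPKM without the extract (2U, 4U) and 5.29 and 5.91 FPKM with it (2T, 4T), on 39 to 93 reads. The treated values fell between both untreated values, and the log2 ratio was 0.43 at 2 hr and −0.41 at 4 hr.

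Counted together, 6 of the 9 genes were above 0 in all 4 libraries, and DUSP1, DUSP5, DUSP6 and DUSP14 passed the minimum level at each time. At 2 hr DUSP1, DUSP5 and DUSP6 were at least 2-fold lower in treated cells, next to 19.9% of all genes tested (43.5% in either direction), and 0 members were higher, next to 23.5%. DUSP5 and DUSP6 passed the minimum through their untreated level alone, and with 1 FPKM required in both libraries DUSP1 was the 1 member lower, at 2 hr as at 4 hr. At 4 hr DUSP1 and DUSP5 were lower, next to 28.2% of all genes, and 0 were higher, next to 16.6% (44.8% of genes in either direction). DUSP1 and DUSP5 were thus lower at both times, next to 9.84% of the 5915 genes that were above 0 throughout and reached 1 FPKM in any library, and 0 members were higher at both, next to 8.06%. For DUSP1, DUSP5 and DUSP6 both treated values lay below both untreated ones, as they did for 32.6% of those genes, and 0 members that passed the minimum lay above, next to 24.2%. With both times in 1 fit and time as a term, limma gave a log2 ratio of −5.34 ± 0.525 (SE) for DUSP1, at an adjusted p of 0.193. The adjusted p was 0.255 for DUSP5 (log2 ratio −4.24 ± 0.610), 0.265 for DUSP6 (−2.23 ± 0.805) and 0.993 for DUSP14 (0.010 ± 0.532). In this fit, which has 1 residual degree of freedom and takes the effect as equal at both times, 0 of 5915 genes (0%) passed an adjusted p of 0.05, and 1034 had an unadjusted p under 0.05. The median log2 ratio of all genes tested was 0.024 at 2 hr and −0.37 at 4 hr. Relative to the 4 hr median, the log2 ratio was −4.60 for DUSP1, −3.07 for DUSP5, −0.42 for DUSP6 and −0.039 for DUSP14. With 8-fold as the limit, chosen after the values were seen and so a description only, 11 of the 5915 genes (0.186%) were lower at both times. Beside DUSP1 and DUSP5, these were the immediate early genes FOS, IER2 and PLK3, the heat shock genes HSPA1A, HSPA1B, HSPA6 and HSPA7, the matricellular gene CTGF and the stress cytokine gene GDF15. HSPA1A and HSPA1B, and HSPA6 and HSPA7, are near-identical copies whose reads may be split or shared. In 2T, FOS (0.193 FPKM), HSPA6 (0.196 FPKM) and HSPA7 (0.125 FPKM) lay under 0.2 FPKM, so the size of their 2 hr ratios is uncertain. EGR1, listed at 0 in 2T, had no ratio at 2 hr and could not be counted.

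**Figure D2:**
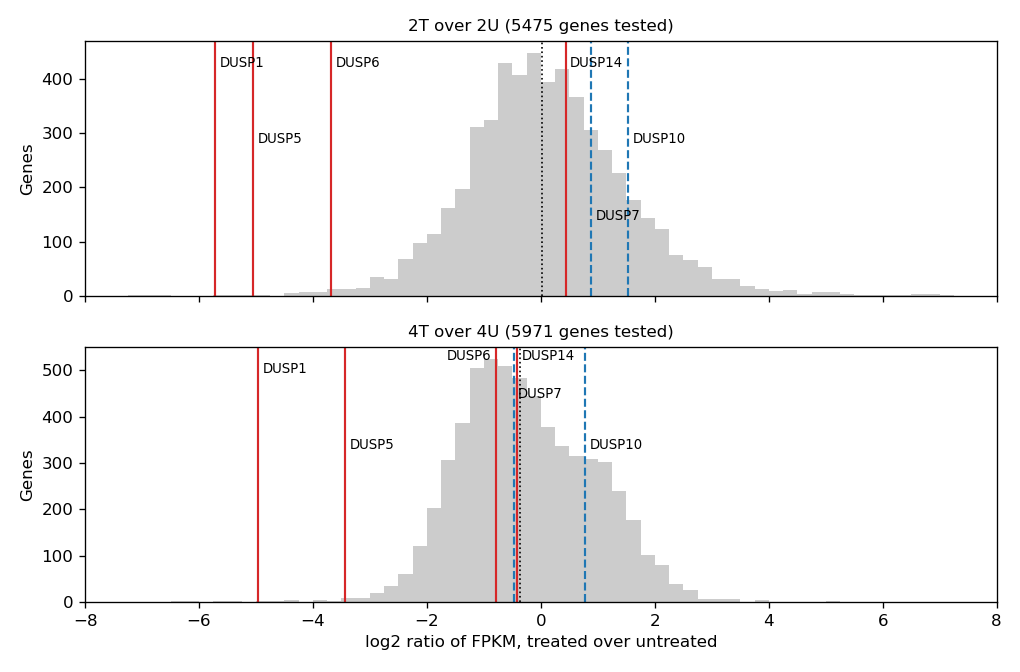
Histograms of the log2 ratio of FPKM, treated over untreated, for all genes tested at 2 hr (top) and 4 hr (bottom), with the number of genes on the y axis. Solid red lines mark members that passed the minimum of 1 FPKM, dashed blue lines DUSP7 and DUSP10, which did not, and the dotted line the median of all genes. DUSP1 and DUSP5 lie in the far left tail at both times, DUSP6 only at 2 hr.

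The composition of the 9 chosen DUSP genes, taken as shares of their summed FPKM, differed between treated and untreated cells. The summed FPKM of the 9 genes was 255 in 2U and 95.3 in 4U, against 11.6 in 2T and 11.1 in 4T. DUSP1 made up 89.1% of the sum in 2U and 83.0% in 4U, but 37.4% in 2T and 22.8% in 4T. Over all 24 DUSP genes listed, DUSP1 made up 58.9% in 2U and 29.4% in 4U, against 3.32% in 2T and 2.31% in 4T. DUSP14 made up 1.54% and 8.25% of the untreated sums and 45.7% and 53.4% of the treated ones. Its own level was 3.92 and 7.86 FPKM untreated (2U, 4U) and 5.29 and 5.91 FPKM treated (2T, 4T), while the treated sums were smaller. DUSP1 thus exceeded DUSP14 by 57.9 times in 2U and by 10.1 times in 4U, and stood at 0.819 of its level in 2T and 0.427 in 4T. In 4T the levels of DUSP5, DUSP6, DUSP7 and DUSP10 lay between 0.537 and 0.792 FPKM, a narrower span than the 2.01-fold difference of DUSP14 between both untreated libraries, and their order is not resolved.

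The nuclear inducible and the cytosolic ERK phosphatases were compared as a ratio within each library, which does not depend on how the libraries were scaled. The summed nuclear level exceeded the summed cytosolic level by 150 times in 2U and 41.9 times in 4U, against 6.71 times in 2T and 2.36 times in 4T. With treatment, the log2 of this ratio changed by −4.49 at 2 hr and by −4.15 at 4 hr. Over the members above 0, the median log2 ratio of treated over untreated was −5.38 at 2 hr and −4.21 at 4 hr for the nuclear genes DUSP1 and DUSP5. For the cytosolic genes DUSP6 and DUSP7 it was −1.40 and −0.63, the former between ratios of opposite sign (−3.68 and 0.89) and at −0.39 on the log2(FPKM + 1) scale. Within the groups, DUSP1 exceeded DUSP5 by 4.70 to 13.5 times in all 4 libraries. DUSP6 exceeded DUSP7 by 3.77 times in 2U and was at 0.159 of it in 2T, the latter on about 1.8 reads of DUSP6.

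**Figure D3:**
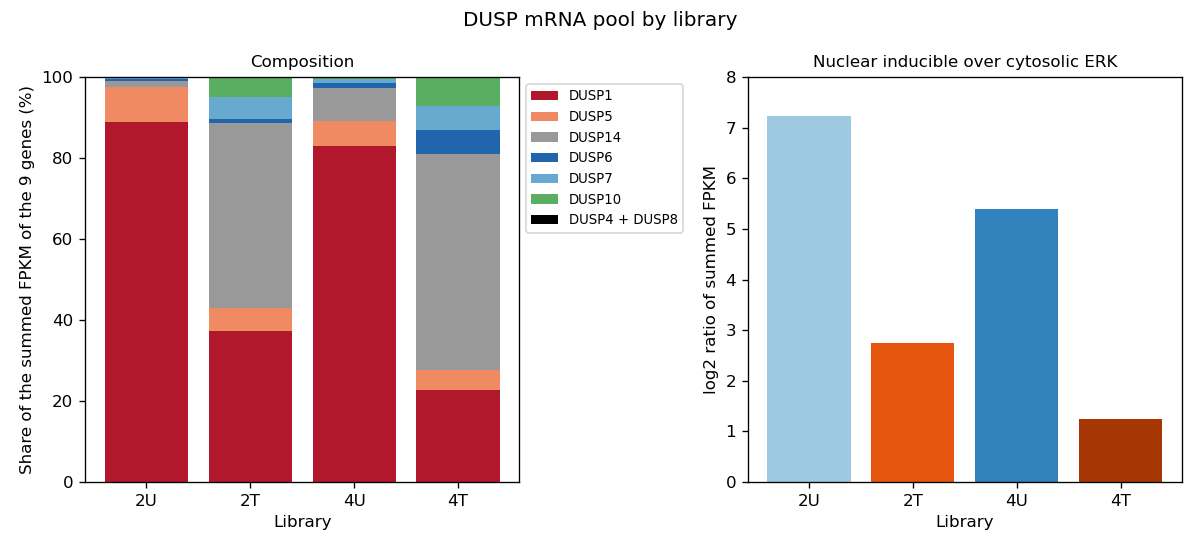
Left, share of the summed FPKM of the 9 genes (percent) in each library, by gene. Right, log2 ratio of the summed FPKM of the nuclear inducible genes (DUSP1, DUSP2, DUSP4, DUSP5) over the cytosolic ERK genes (DUSP6, DUSP7). DUSP1 fills most of the untreated bars and DUSP14 is the widest band of both treated bars, and the log2 ratio is 7.23 and 5.39 untreated (2U, 4U) and 2.75 and 1.24 treated (2T, 4T).

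The untreated libraries differed from each other in the same genes. From 2U to 4U, DUSP1 was 2.87-fold lower (log2 ratio −1.52) and DUSP5 was 3.73-fold lower (log2 ratio −1.90), next to 10.4% of 5800 genes tested. DUSP6 differed little (log2 ratio −0.24), and DUSP14 was higher (log2 ratio 1.01), next to 23.8% of genes, a call that was lost when ratios were centred on the median of all genes. For DUSP1 and DUSP5, the differences between treated and untreated libraries were larger than these between the untreated ones. Each of these is a difference between single libraries, and its cause was not tested. Between 2T and 4T, DUSP1 (log2 ratio −0.78) and DUSP14 (log2 ratio 0.16) were both under 2-fold. Of 5382 genes, 5.65% were higher and 5.78% lower between those libraries, 11.4% in all, against 34.2% between 2U and 4U. The time after DMSO and any other difference between these libraries cannot be told apart.

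AU-rich pentamers in the 3′ untranslated region are given as a description of the members, and mRNA decay was not measured. DUSP1 carried 4 copies of ATTTA (6.01 per kb, higher than 94.5% of 4950 expressed genes) and 2 of the nonamer TTATTTATT, which occurs in 5.35% of those genes and contains an ATTTA itself. DUSP5 held 0, DUSP6 held 1 copy in 2019 bases, and DUSP14, under 2-fold at both times, held 3 copies (4.75 per kb, higher than 90.8%). DUSP7 held 0, DUSP2 and DUSP10 held 3 each, DUSP8 held 4 with 1 nonamer, and DUSP4 held 6 with 1 nonamer. The single copy of DUSP6 and those of DUSP14 (the plus strand of chromosome 17) are shown with the pentamer in capitals for comparison with the nonamers of DUSP1. They begin 1136 bases after the stop codon in DUSP6, at chr12:89741883-89741903 on the minus strand, and 133, 482 and 521 bases after it in DUSP14, at chr17:35873096-35873116, chr17:35873445-35873465 and chr17:35873484-35873504 (GRCh37).
DUSP6 pentamer: gagctggaATTTAttataaga
DUSP14 first pentamer: gtgttcaaATTTAttttaaga
DUSP14 second pentamer: cctccattATTTAgtgactct
DUSP14 last pentamer: cccttattATTTAgctgttaa

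Promoter windows of 300 bases were matched for 7 of the 9 genes, not for DUSP4 and DUSP5, and searched on both strands for 11 motifs. The full cyclic AMP response element TGACGTCA occurred in 1.85% of the 35116 RefSeq windows. DUSP1 had 1 copy and DUSP8, listed above 0 in 2U alone, had 2, which begin 118 and 74 bases before its start at chr11:1572372-1572399 and chr11:1572328-1572355 (GRCh38.p14, minus strand).
DUSP8 first response element: cgggctccgcTGACGTCAcctgcccccg
DUSP8 second response element: tggctgcaggTGACGTCAggggcttttt
DUSP1 held 4 copies of the shorter TGACG, of which 2 are the strands of its full element and 1 overlaps the E-box, and 24.6% of windows hold at least one. The E-box CACGTG was found in DUSP1 and DUSP2 (7.26% of windows), TATAAA in DUSP1 (11.5%), and the NRF2 motif TGACNNNGC in DUSP1 and in one window of DUSP10 (13.3%). GGGCGG, the Sp1 motif, was in all matched members but DUSP6 and in 45% of windows. The AP-1 motif TGANTCA (7.71%), the heat shock motif GAANNTTC (6.77%), the ETS motif CCGGAAGT (4.14%), the serum response CArG box (1.29%) and the NF-kB motif (5.91%) had no match in these members' windows. DUSP6 had no match to any of the 11. These matches are letters in a window and were not measured as bound sites.

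Among 4075 genes with at least 1 FPKM throughout, those whose levels over the 4 libraries lay nearest to DUSP1 were heat shock genes. This minimum left out DUSP5 (0.658 FPKM in 2T), FOS (0.193 FPKM in 2T) and EGR1 (0 in 2T), so their distances were not computed. Likeness was the Euclidean distance between log2 FPKM profiles, each centred on its own mean. HSPA1B (distance 0.752) and HSPA1A (0.910), HSP70 chaperones, and DNAJB1 (1.56), an HSP40 co-chaperone, were nearest. DNAJB1 was 2820 and 596 FPKM without the extract (2U, 4U) and 72.6 and 84.6 FPKM with it (2T, 4T). For DUSP14, the nearest were CD99 (0.0896), PDLIM1 (0.0937) and POLR3GL (0.111).

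The other genes of the pathway, in lists drawn up by role, had log2 ratios nearer to 0 than DUSP1 and DUSP5 in most cases. The counts below stand next to 19.9% of all genes lower and 23.5% higher at 2 hr, and 28.2% lower and 16.6% higher at 4 hr. Of 14 MAP kinases 6 passed the minimum level at each time, of which 2 were lower at 2 hr and 4 at 4 hr, and 0 were higher. MAPK12 (p38 gamma) was 10.5 and 12.0 FPKM without the extract (2U, 4U) and 5.13 and 4.11 FPKM with it (2T, 4T). MAPK7 (ERK5) had log2 ratios of −1.60 and −2.19, and MAPK3 (ERK1) of 0.66 and −1.41, so that the latter differed in direction between the times. MAPK7 was under 1 FPKM in both 2 hr libraries (0.898 in 2U, 0.297 in 2T), so it was not counted at 2 hr. Of the MAP kinase kinases 3 of 7 passed, with 2 lower at 2 hr and all 3 at 4 hr. MAP2K1 (MEK1) was 7.83 and 4.40 FPKM without the extract (2U, 4U) and 1.84 and 1.59 FPKM with it (2T, 4T). MAP2K3, which activates p38, had log2 ratios of −1.21 and −1.52.

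Upstream kinases were mixed. Of 19 MAP3 and RAF kinases 6 passed at 2 hr, with 2 higher and 2 lower, and 5 passed at 4 hr, with 0 higher and 1 lower. ARAF had log2 ratios of −1.01 and −1.18, whereas MAP3K12, a JNK activator, was 0.212 and 0.288 FPKM without the extract (2U, 4U) and 2.10 and 0.289 FPKM with it (2T, 4T). Of 8 other feedback inhibitors (Sprouty, SPRED and ERRFI1) only 1 passed at each time. This was SPRED2 at 2 hr (log2 ratio −1.32) and ERRFI1 at 4 hr (−0.63). SPRY2 was 0.856 and 2.75 FPKM without the extract (2U, 4U) and 0.296 and 0 FPKM with it (2T, 4T). It was under 1 FPKM in both 2 hr libraries and had no ratio at 4 hr. Of 7 other phosphatases of MAP kinases 2 passed. PPP2CA, a catalytic subunit of PP2A, was higher at both times, at 32.6 and 21.3 FPKM without the extract (2U, 4U) and 70.5 and 68.4 FPKM with it (2T, 4T). PPP2CB had log2 ratios of 0.42 and 0.34. PEBP1, which restrains RAF, was higher at 2 hr (log2 ratio 1.43) and stood at 0.31 at 4 hr, and the JNK scaffold MAPK8IP1 was lower at 4 hr (log2 ratio −1.70).

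Of 13 ERK output genes downstream of the MAP kinases 8 passed and 6 were lower at each time, with 0 higher (median log2 ratio −1.21 at 2 hr and −1.82 at 4 hr, against 0.024 and −0.37 for all genes). FOSL1, an AP-1 subunit, was 2134 and 1149 FPKM without the extract (2U, 4U) and 532 and 324 FPKM with it (2T, 4T). CCND1 (cyclin D1) had log2 ratios of 0.22 and −0.18 and ETV5 of −0.49 and −0.47. Of 17 transcription factors that MAP kinases act on, 11 passed and 7 were lower at each time, with 2 higher at 2 hr and 0 at 4 hr. FOS was 29.4 and 43.3 FPKM without the extract (2U, 4U) and 0.193 and 1.09 FPKM with it (2T, 4T), so its untreated level was higher at 4 hr where that of DUSP1 was lower. JUND had log2 ratios of −3.78 and −1.60. ELK1, a ternary complex factor, had 2.76 and −0.36, the former over a 2U level of 0.249 FPKM, against 1.75 FPKM in 4U. FOSL1 and EGR1 stand in both lists. EGR1 was 18.6 and 39.8 FPKM without the extract (2U, 4U) and 0 and 0.810 FPKM with it (2T, 4T). It thus had no ratio at 2 hr, and its log2 ratio at 4 hr was −5.62. Of 11 downstream kinases 4 passed at 2 hr and 5 at 4 hr, of which 2 were lower at each time and 0 were higher. RPS6KA1 (RSK1) was lower at both (log2 ratios −2.41 and −2.77).

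Of 8 proteins that bind AU-rich mRNA, 3 of the 4 that passed at 2 hr and 4 of the 5 at 4 hr were lower, next to 19.9% and 28.2% of all genes. ZFP36L1, which promotes decay, was 5.46 and 3.17 FPKM without the extract (2U, 4U) and 0.858 and 1.08 FPKM with it (2T, 4T). TIAL1 had log2 ratios of −3.59 and −1.04, over untreated levels that differed between 2U (18.85 FPKM) and 4U (3.62 FPKM). HNRNPD (AUF1), another decay factor, had −0.81 at 2 hr and was higher at 4 hr (1.46).

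**Figure D4:**
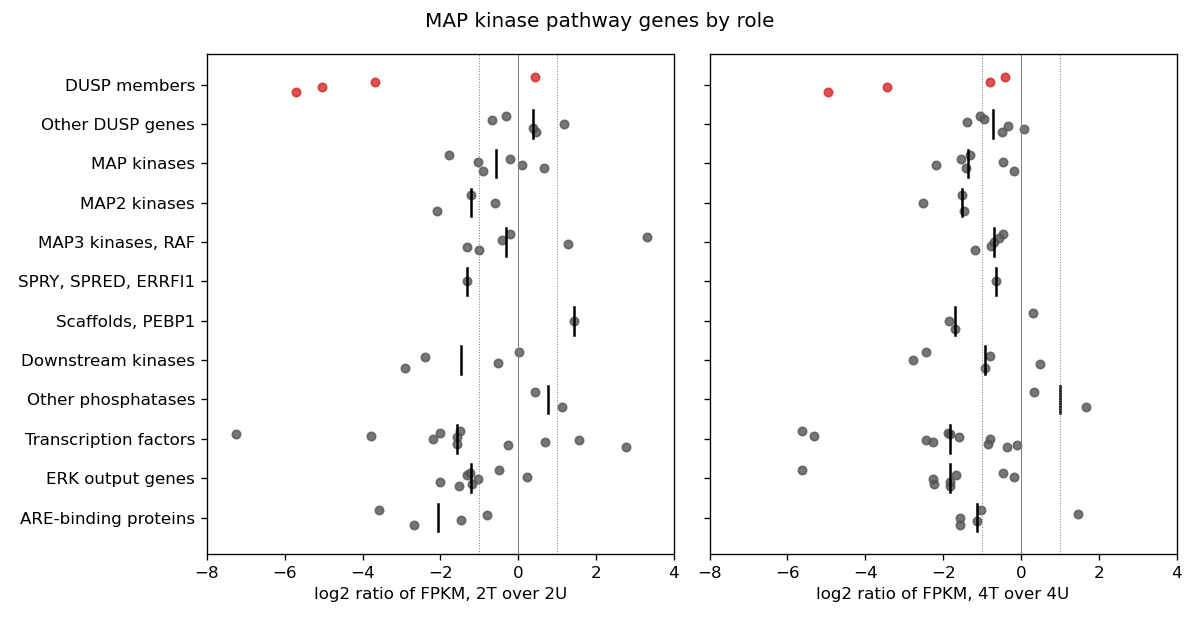
Log2 ratio of FPKM, treated over untreated, at 2 hr (left) and 4 hr (right) for the genes of each role that passed the minimum of 1 FPKM. Each point is a gene, black bars are list medians, dotted lines mark 2-fold, and FOSL1, EGR1 and SPRED2 stand in more than one list. The red DUSP1 and DUSP5 points lie left of nearly all other pathway genes. FOS lies further left than DUSP1 at both times, as EGR1 does at 4 hr. EGR1 has no point at 2 hr, because it was listed at 0 in 2T.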

How the data were processed

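The mRNA levels of SK-HEP-1 were used as deposited, in FPKM. Per the labels, poly(A) RNA was isolated and sequenced on SOLiD 3. Per the study, the authors kept reads of quality value at least 20 and mapped them to hg19 (GRCh37) with at most 2 mismatches. The submitters' processing notes name TopHat and Cufflinks, the methods Bowtie and Cufflinks, and versions are not given in the sources used here. Gene reads were estimated as FPKM times transcript length over the step that 1 read makes. For genes below 0.6 FPKM, the ratio of 2U to 2T was 1.083 in 126 of 2220, and 0.722 and 0.541 were the next most frequent. About 4.51 to 5.33 reads made 1 FPKM per kb. The mapped read totals that the study gives would make every estimate larger, so these are approximate and no interval is given.

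Groups came from the labels. Log2 ratios used the FPKM as they stand, for genes listed above 0 in each library compared that reached 1 FPKM in either, and 2-fold was the threshold. The ratios at each time were not tested. Treated against untreated over both times was fitted in limma 3.58.1 (R 4.3.3) with time as a term and Benjamini-Hochberg adjustment, an alternative added after seeing the data. All 9 members are named. From each other list the 2 genes with the highest and the 2 with the lowest mean log2 ratio were eligible to be named. Beside these, EGR1 and SPRY2, each listed at 0 in a treated library, and cell type markers at or near 0 are named. For DUSP1 and DUSP14, the members at 1 FPKM or more throughout, the 3 nearest profiles are given. The members and lists were chosen with earlier results of these data known. Gene models and 3′ sequences are from GENCODE on GRCh37, promoters from RefSeq on GRCh38.p14. Alternatives were a pseudocount of 1, no minimum, 1 FPKM in both libraries, rescaling to an equal total (TPM), centring, a pooled untreated level and a 3-fold threshold. The calculations used Python 3.11.15, numpy 2.4.6, pandas 2.3.3 and matplotlib 3.10.9 and were checked on simulated data. The miRNA libraries are not used here.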

Additional observations from a re-analysis of the deposited data

Results flagged for a closer look

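DUSP7 and DUSP14 had treated-over-untreated ratios of opposite sign at the 2 times. DUSP7 had a log2 ratio of 0.89 at 2 hr and −0.48 at 4 hr, on 5.3 to 17 reads. DUSP14 had a log2 ratio of 0.43 at 2 hr and −0.41 at 4 hr, while its untreated level was 2.01-fold higher in 4U than in 2U. Neither passed 2-fold, and the difference between the times was not tested, because each condition had 1 library.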

How the results depend on the processing

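Of 174 values recomputed under 8 settings, 125 stayed within 1.5 times of the reported value, 45 moved further and 4 reversed. Part of this outcome was fixed in advance. A change of minimum leaves the ratio of each member as it was, and rescaling or centring shifts all ratios of a comparison alike. Values that a setting removed were not counted, so the 125 do not measure robustness. Each condition had 1 library, so no replicate could be left out and no replicate numbers pair the samples. Over the settings that gave a value (7 for DUSP1, 6 for DUSP5), the log2 ratio of DUSP1 ran from −5.74 to −4.95 at 2 hr and from −5.73 to −4.51 at 4 hr, and that of DUSP5 from −5.07 to −3.78 and from −4.39 to −2.15. With both times in 1 limma fit, chosen after seeing the data, DUSP14 was 0.010 against −0.41 at 4 hr. The other reversals came with the mean of 2U and 4U as the untreated level: DUSP14 was then −0.070 at 2 hr and 0.090 at 4 hr, and DUSP7 0.22 at 4 hr. That setting gave a nuclear median of −4.53 at 2 hr and −5.06 at 4 hr. With log2(FPKM + 1), the nuclear median was −4.60 at 2 hr and −3.33 at 4 hr, the cytosolic median −0.39 at 2 hr, the log2 nuclear to cytosolic ratio 6.56 in 2U and 1.78 in 2T, and 0 members were higher from 2U to 4U. Without a minimum, 1 member (DUSP10) was higher at 2 hr and 1 not overlapping above, and 3 were higher from 2U to 4U. With 1 FPKM in both libraries, 1 member (DUSP1) was lower at 2 hr, at 4 hr and not overlapping below, the nuclear median at 4 hr was −4.97, and the cytosolic medians had no value. Centring left 0 members higher from 2U to 4U, and 3-fold left 1 lower and 0 higher there. Over all genes, centring turned 1681 lower and 994 higher at 4 hr into 965 and 1467. From 1091 lower and 1289 higher at 2 hr, the pseudocount gave 723 and 853 and 3-fold 511 and 734, and at 4 hr they gave 1080 and 654, and 670 and 392. The higher count at 2 hr was 1981 without a minimum and 757 with 1 FPKM in both.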

Other observations

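Over all 24 DUSP genes listed, the atypical phosphatase gene DUSP23 had the highest level in 4U and both treated libraries, and DUSP1 in 2U. It was 111 and 149 FPKM without the extract (2U, 4U) and 88.8 and 77.7 FPKM with it (2T, 4T), a log2 ratio of −0.32 at 2 hr and −0.94 at 4 hr, both under 2-fold. DUSP23 stood at 0.490 of DUSP1 in 2U and 1.88 in 4U, and exceeded it by 20.5 times in 2T and 30.8 times in 4T. Its share of all DUSP FPKM was 28.8% (2U) and 55.3% (4U) untreated and 68.2% (2T) and 71.3% (4T) treated, while that of DUSP1 was 58.9% and 29.4%, against 3.32% and 2.31%.

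Of the 15 DUSP genes outside the 9, 5 were listed at 0 throughout. At 2 hr 5 passed the minimum, with 1 higher and 0 lower, next to 23.5% and 19.9% of all genes tested. At 4 hr 6 passed, with 0 higher and 2 lower, next to 16.6% and 28.2% of all genes. DUSP12 was 7.68 and 10.6 FPKM without the extract (2U, 4U) and 17.2 and 8.51 FPKM with it (2T, 4T). DUSP22, known to act on JNK signalling, had log2 ratios of −0.66 and −1.39. DUSP11, an RNA phosphatase, had 0.38 and 0.069.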
